A study of Mus musculus with 10 samples.

Results

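Non-productive kappa rearrangements are immunoglobulin light-chain sequences in which a kappa V gene has been joined to a kappa J gene in a way that cannot give a full-length protein. They were taken as the rows of the deposited repertoire tables whose V call was a kappa V gene and whose productivity flag was false. There were 25667 such rows, of 103954 kappa rows and 448970 rows in all, and the 78287 kappa rows flagged productive served for comparison within the same mouse. The rows came from the deep cervical lymph nodes of 10 wild-type C57BL/6 mice that had received GL261 glioma cells, a mouse brain tumour line, in the brain. Of these, 5 mice were given an isotype control IgG and 5 an anti-CTLA-4 antibody, and all nodes were taken on day 20. Every mouse bore the tumour, so no comparison with tumour-free nodes exists here. The receptor libraries were made in bulk from RNA of all cells of the dissociated nodes, with no sorting named, so fewer cells and less transcript per cell cannot be told apart. The labels number the mice and do not state cages or litters. The p-values below therefore measure the spread between these mice.

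A developing B cell joins a kappa V gene to a J gene by cutting at recombination signals, trimming the ends and ligating them. Because the join is imprecise, many joints fall out of the reading frame or carry a stop codon. Such an allele makes no receptor, so its joint is carried along by a cell that survives through another, productive allele, and its V and J usage is often read as a record of recombination before selection on the protein. Transcripts with an early stop codon are commonly degraded in cells. In mouse, the number after the hyphen in a kappa V name runs from low values near the J genes to high values far from them. IGKJ3 is a defective J gene.

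A clonotype was counted once per mouse as a distinct combination of V call, J gene and junction nucleotides. The junction runs from the conserved cysteine codon of V to the conserved phenylalanine codon of J. The sequences below are junctions, 5′ to 3′, with the nucleotides that aligned to the J gene past the end of the V alignment in capitals. Nucleotides that both alignments covered are in lower case. The first set holds the 5 non-productive junctions found in all 10 mice with the highest summed counts, which were all IGKV1-135 joined to IGKJ1. The productive junction of the same pair follows, for comparison.
IGKV1-135 with IGKJ1, length 32: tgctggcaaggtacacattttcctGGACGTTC
IGKV1-135 with IGKJ1, length 35: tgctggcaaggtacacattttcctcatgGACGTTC
IGKV1-135 with IGKJ1, length 31: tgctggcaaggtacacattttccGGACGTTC
IGKV1-135 with IGKJ1, length 34: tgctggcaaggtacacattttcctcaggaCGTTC
IGKV1-135 with IGKJ1, length 28: tgctggcaaggtacacatttGGACGTTC
IGKV1-135 with IGKJ1, productive, length 33: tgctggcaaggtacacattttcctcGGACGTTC

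As aligned, these joints differed in how much of each gene end was kept. For none of the 6 did the deposited tables give a nucleotide between V and J. Some lay 1 edit from a productive junction of the same pair that had a higher count in the same mouse. That was so for the junction of 34 nucleotides in 10 mice and for that of 32 in 9. It was so for 31 nucleotides in 4 mice, 28 in 3 and 35 in 0. Such near copies are described further below. The junction of 32 nucleotides had a summed deposited count of 5431 over the 10 mice, from 53 to 3214. That of 35 nucleotides had 1401, from 57 to 244. The productive junction of 33 nucleotides had 12879, from 539 to 2774. The highest single non-productive count therefore lay above the highest count of that productive junction, although the summed count was lower.

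The next set holds the non-productive junction with the highest count in each of the other mice, where it was not among those above. Replicate numbers are those of the labels, and lower case here also holds any nucleotides between the V and J alignments.
IGKV4-50 with IGKJ5, isotype replicate 1: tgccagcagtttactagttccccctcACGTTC
IGKV9-120 with IGKJ4, isotype replicate 2: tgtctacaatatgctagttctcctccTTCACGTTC
IGKV6-32 with IGKJ5, isotype replicates 3 and 4: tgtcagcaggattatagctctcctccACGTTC
IGKV3-2 with IGKJ2, anti-CTLA-4 replicate 1: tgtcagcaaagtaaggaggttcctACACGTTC
IGKV3-2 with IGKJ2, anti-CTLA-4 replicate 3: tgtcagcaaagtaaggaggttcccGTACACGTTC
IGKV4-55 with IGKJ1, anti-CTLA-4 replicate 5: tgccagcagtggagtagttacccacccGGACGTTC

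The last set shows the joints that the account of stop codons and V genes turns on. The first pair is in frame and carries a stop codon, at codon position 1 and at codon position 7 counted from the cysteine codon. The second pair holds the most widely shared non-productive junctions of IGKV8-16 and IGKV4-77, the V calls with the largest excess among non-productive joints.
IGKV4-55 with IGKJ5, stop at codon position 1: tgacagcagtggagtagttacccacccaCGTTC
IGKV2-112 with IGKJ2, stop at codon position 7: tgtcaacaacttgtagagtaGTACACGTTC
IGKV8-16 with IGKJ1, length 32: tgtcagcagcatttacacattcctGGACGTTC
IGKV4-77 with IGKJ5, length 34: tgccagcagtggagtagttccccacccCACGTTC

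Non-productive joints were numerous as clonotypes and made up a small share of deposited counts. The 24493 member rows with a junction formed 19462 clonotypes, beside 34920 productive ones. They made up 33.5%, 38.0%, 36.9%, 35.8% and 38.1% of kappa clonotypes in isotype replicates 1 to 5, and 30.2%, 31.0%, 32.1%, 41.7% and 35.9% in anti-CTLA-4 replicates 1 to 5. Their share of kappa counts was 1.82%, 5.00%, 2.82%, 2.32% and 3.83% in the isotype mice. It was 1.53%, 3.72%, 2.26%, 3.81% and 3.51% in the anti-CTLA-4 mice. Every mouse thus had a clonotype share many times its count share, and the groups overlapped on both. The deposited counts behind these shares ranged from 5672 to 18140 non-productive and from 192536 to 437853 productive counts per mouse. PCR copies are not independent molecules, and the files do not say whether a count is a read or a molecule.

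The mean deposited count of a non-productive clonotype was 5.22 ± 1.38 (SD, n = 10 mice), from 3.60 to 7.53. That of a productive clonotype was 95.7 ± 25.5, from 62.6 to 142. The classes did not overlap, and the mean was lower in all 10 mice (exact sign-flip permutation test, two-sided, p = 0.00195, adjusted p = 0.0024 over 16 measures). This p is the smallest that 10 mice can give. Clonotypes with a count of 1 made up 42.6% ± 8.62 of the non-productive and 30.3% ± 4.14 of the productive class, higher in 10 of 10 mice (exact permutation test, adjusted p = 0.0024). With each shared joint kept only in the mouse with its highest count, the difference was 1.15 points and did not pass (exact permutation test, adjusted p = 0.488). Median counts were close, with a median over mice of 2 for non-productive and 3 for productive clonotypes, so the classes parted most in their upper range. A count of at least 100 was reached by 64 non-productive clonotypes, or 0.329%, and by 2999 productive ones, or 8.59%.

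A few abundant joints carried much of the non-productive count. The clonotype with the highest count held from 1.89% of non-productive counts, in anti-CTLA-4 replicate 4, to 28.0%, in anti-CTLA-4 replicate 2, with a median of 14.6% over the 10 mice. IGKV9-120 with IGKJ4 reached a count of 4131 in isotype replicate 2. IGKV4-50 with IGKJ5 was the highest in isotype replicate 1 with a count of 218. The joint of IGKV6-32 with IGKJ5 printed above was the highest in both isotype replicate 3, at 2340, and isotype replicate 4, at 777. It was held by 5 mice, and in all 5 it lay 1 edit from a productive junction of the same pair with a higher count. The highest joints of the other mice did not, in the mouse where they were highest. Shares of counts thus rest on single joints far more than shares of clonotypes do.

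Another 1174 member rows, 4.57% of the non-productive rows, had no junction and entered no clonotype. Their sequences averaged 217 nucleotides, against 325 for members with a junction, and their mean count was 2.78. IGKV19-93 gave 134 of these rows, IGKV1-110 gave 82 and IGKV2-137 gave 71. All 41 member rows of IGKV15-97 lacked a junction. The share ranged from 3.31% to 4.53% in the isotype mice and from 4.10% to 7.15% in the anti-CTLA-4 mice.

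Most non-productive joints were out of frame. Frame and stop codons are what the productivity flag rests on, so they are described without a test. Of the 19462 clonotypes, 8730 had a junction length that left a remainder of 1 when divided by 3, 9850 left a remainder of 2, and 882 were in frame. Per mouse the shares were 44.9% ± 1.73, 50.5% ± 1.5 and 4.59% ± 0.703 (SD, n = 10). The in-frame share ran from 3.11% to 5.43%. Mean counts were 4.61 for remainder 1, 5.88 for remainder 2 and 3.80 for in-frame joints.

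All 882 in-frame members carried a stop codon inside the junction, and 5 of them carried 2. The first stop codon was TGA in 366, TAG in 352 and TAA in 164. It sat at codon position 1, in place of the conserved cysteine, in 303 joints, and at codon position 7, near the V to J border, in 232. At position 1 the codon was TGA in 300 of 303 joints, which were spread over many V calls and led by IGKV10-96 with 25. At position 7 it was TAG in 180 of 232, led by IGKV6-23 with 27, IGKV8-30 with 26 and IGKV6-15 with 24. Position 6, directly before, held 5.

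Many members lay very close to a productive joint with a higher count. A near copy was defined as a non-productive junction 1 edit away from a productive junction of the same mouse, V call and J gene that had a higher count. Near copies made up 10463 of 19462 non-productive clonotypes, or 53.8%, with a range of 48.2% to 57.1% over mice. Among in-frame members the share was 77.9%, and it was 89.8% where the stop codon replaced the cysteine and 59.1% where it sat at codon position 7. Among out-of-frame members it was 52.6%, always by 1 nucleotide added or lost. Whether near copies are separate joints or errors in copying or reading productive ones was not tested. Without them, non-productive joints made up 20.3% ± 1.93 of kappa clonotypes and 1.68% ± 0.856 of kappa counts (SD, n = 10). Near copies are chosen by their closeness to productive joints, so results that change without them are marked below.

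**Figure D1:**
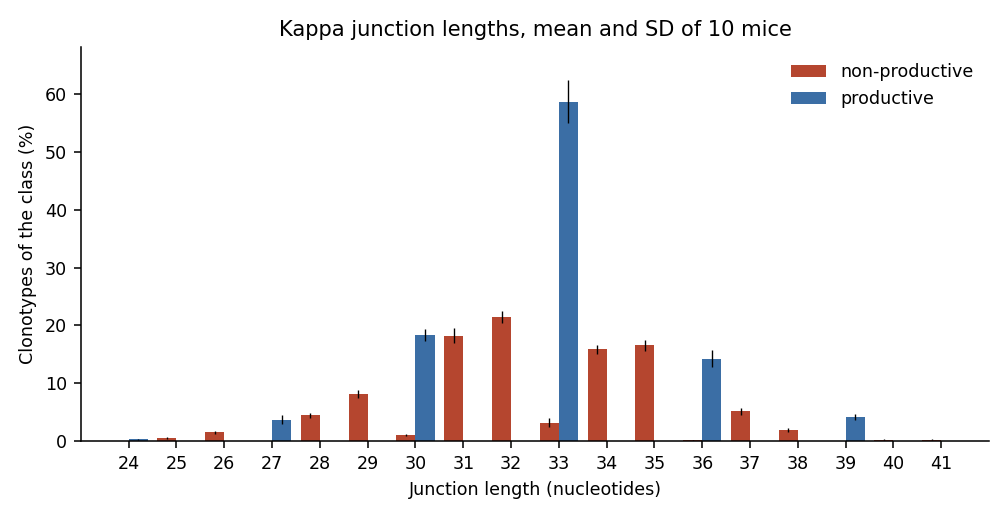
Share of kappa clonotypes (y axis, percent of the class) at each junction length (x axis, nucleotides) for non-productive and productive clonotypes. Bars are means of 10 mice and lines are SDs. Productive lengths are multiples of 3 and peak at 33, where they reach 58.6%, while non-productive lengths peak on both sides of it, at 32 and at 31, 34 and 35.

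The non-productive lengths flanked the productive ones. This follows in part from the productivity flag, since productive junctions were in frame and most non-productive ones were not. Non-productive junctions of 31, 32, 34 and 35 nucleotides made up 18.2% ± 1.33, 21.5% ± 1.07, 15.9% ± 0.750 and 16.5% ± 1.02 of the class (SD, n = 10 mice). Productive junctions had lengths of 30, 33 and 36 nucleotides in 18.3% ± 1.06, 58.6% ± 3.71 and 14.2% ± 1.48. The mean length was 32.55 nucleotides for non-productive and 32.87 for productive clonotypes. It was shorter in all 10 mice, with a difference of -0.322 ± 0.106 nucleotides (exact permutation test, adjusted p = 0.0024). Frame limits the lengths that each class can take, so this test compares classes that were defined in part by length. How much of the difference in mean length comes from that definition was not tested. The extremes were 10 and 133 nucleotides among the members and 9 and 117 among productive clonotypes.

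Non-productive joints lacked more of the V end than productive ones, and the direction for the J end depended on how the alignments were read. V trimming was counted as nucleotides missing from the longest V end common for that V call, and J trimming from the earliest J start. Non-productive joints lacked 5.23 ± 0.0462 nucleotides of V, against 4.86 ± 0.0855 in productive joints, more in 10 of 10 mice. They lacked 5.21 ± 0.0483 nucleotides of J, against 5.54 ± 0.0488, fewer in 10 of 10 mice. For both, the exact permutation test gave an adjusted p of 0.0024 and the classes did not overlap. Trimming and added nucleotides set the junction length, and so the frame that in part defines the classes. How much of these differences comes from that definition was not tested. The V and J alignments overlapped in 55.9% ± 1.35 of non-productive and 39.1% ± 1.79 of productive clonotypes (SD, n = 10), so some nucleotides were counted to both genes. With these nucleotides given to V alone, an alternative chosen after seeing the data, the J difference turned to 0.15 nucleotides and passed (exact permutation test, adjusted p = 0.0024). With them given to J alone, the V difference was 0.857 nucleotides. Kappa joints receive few added nucleotides, and the mean deposited number between V and J was 0.699 ± 0.0892 in non-productive and 0.737 ± 0.0645 in productive clonotypes. That difference did not pass (exact permutation test, adjusted p = 0.293). It passed in the same direction without anti-CTLA-4 replicate 2, at -0.0711 nucleotides (adjusted p = 0.00417), and in the opposite direction without near copies, at 0.305 nucleotides (adjusted p = 0.0026, exact permutation test).

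J usage differed between the classes at 3 of the 4 J genes in use. IGKJ2, the J gene after IGKJ1 in the locus, made up 24.6% ± 1.18 of non-productive and 29.8% ± 1.06 of productive clonotypes, lower in 10 of 10 mice, with a difference of -5.26 points. Its highest non-productive value, 26.6%, lay below its lowest productive value, 28.4%. IGKJ4 made up 20.8% ± 0.597 against 18.3% ± 0.829, and its ranges, 19.6% to 21.6% and 17.0% to 19.4%, did not overlap. IGKJ5, the J gene farthest from the V genes, made up 28.1% ± 0.740 against 26.2% ± 1.31, higher in 10 of 10 mice although the ranges overlapped. All 3 had an adjusted p of 0.0024 (exact permutation test, n = 10). IGKJ5 did not pass with rows in place of clonotypes, at -0.354 points (adjusted p = 0.795), with each shared joint kept only in the mouse with its highest count, at 0.80 points (adjusted p = 0.473), or weighted by deposited counts, at -3.74 points (adjusted p = 0.567, exact permutation tests).

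IGKJ1, nearest to the V genes, made up 26.5% ± 1.17 of non-productive and 25.7% ± 0.723 of productive clonotypes. It was higher in 7 of 10 mice, which did not pass (exact permutation test, adjusted p = 0.0833). Without isotype replicate 3 the difference was 1.09 points and passed (adjusted p = 0.0208, exact permutation test), while without near copies it was -0.44 points and did not (adjusted p = 0.5). IGKJ3 appeared in 2 rows of all kappa rows.

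**Figure D2:**
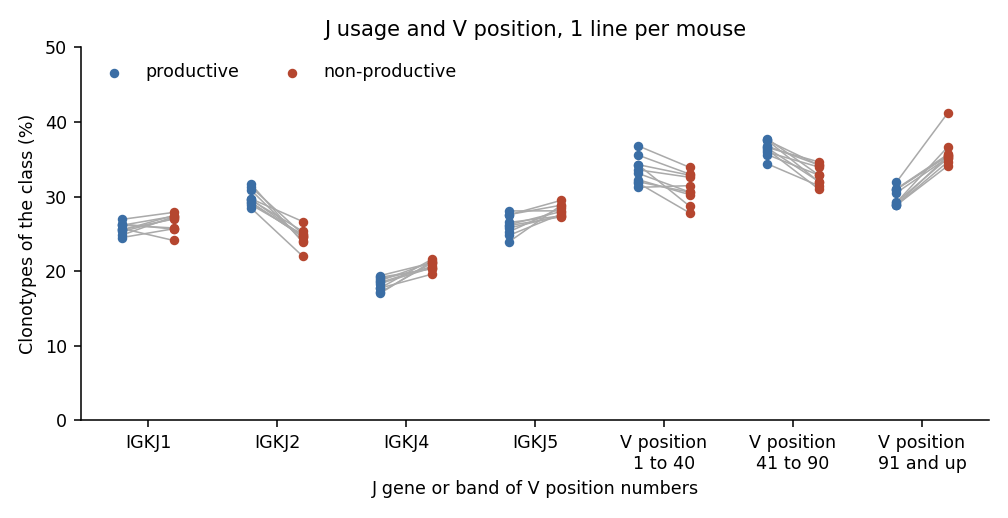
Share of clonotypes of each class (y axis, percent) that used each J gene or a V gene in each band of position numbers (x axis). Each grey line joins the productive and the non-productive value of 1 of 10 mice. The lines fall for IGKJ2 and rise for IGKJ4 and for V position 91 and up in every mouse.

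Non-productive joints used V genes farther from the J genes on average. The mean V position number was 68.4 ± 1.84 in non-productive clonotypes, from 66.2 to 72.9. It was 62.8 ± 1.11 in productive ones, from 61.0 to 64.1. The ranges did not overlap, and the number was higher in 10 of 10 mice by 5.62 ± 1.29 (exact permutation test, adjusted p = 0.0024). V genes numbered 91 and up made up 35.9% ± 1.98 of non-productive and 30.0% ± 1.16 of productive clonotypes. V genes numbered 41 to 90 made up 32.9% ± 1.29 against 36.5% ± 1.02, and those numbered 1 to 40 made up 31.2% ± 1.97 against 33.5% ± 1.77. The far band was higher in all 10 mice and the middle band lower in all 10, both with an adjusted p of 0.0024, and the near band was lower in 9 of 10 (adjusted p = 0.00446, exact permutation tests). The middle band did not pass with rows in place of clonotypes, at -1.90 points (adjusted p = 0.0979), or with each shared joint kept only in the mouse with its highest count, at -0.716 points (adjusted p = 0.406, exact permutation tests). The shift of the mean number was larger without near copies, at 8.53 (adjusted p = 0.0026, exact permutation test, n = 10). Leaving them out removes non-productive clonotypes alone, and unevenly, such as 79.8% of those of IGKV10-96 and 33.1% of IGKV8-16. The larger shift therefore cannot be read as added support.

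**Figure D3:**
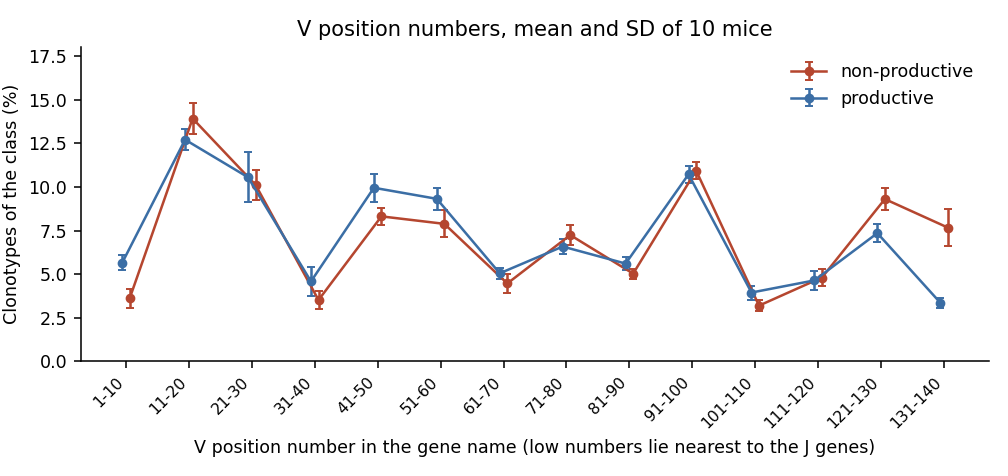
Share of clonotypes of each class (y axis, percent) whose V gene fell in each step of 10 position numbers (x axis). Points are means of 10 mice and bars are SDs. The classes part most at 131 to 140, where non-productive clonotypes reach 7.67% and productive ones 3.36%, and at 1 to 10, where they reach 3.62% and 5.65%.

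The profile over position numbers was uneven. V genes numbered 131 to 140 made up from 6.82% to 10.5% of non-productive and from 2.79% to 3.76% of productive clonotypes. V genes numbered 1 to 10, nearest to J, made up from 2.82% to 4.86% against 5.10% to 6.45%. Neither pair of ranges overlapped. IGKV1-135 alone made up a mean of 4.89% of non-productive and 1.85% of productive clonotypes. Other steps did not follow distance evenly. Means were 13.9% against 12.7% at 11 to 20, and 3.19% against 3.94% at 101 to 110. They were close at 91 to 100, at 10.9% and 10.7%, and parted at 121 to 130, at 9.30% and 7.35%. How much of the shift rests on single V calls was not tested. By J gene, the mean V number of non-productive clonotypes was 72.8 ± 3.21 with IGKJ1, 67.7 ± 2.12 with IGKJ2, 67.2 ± 1.60 with IGKJ4 and 65.7 ± 1.59 with IGKJ5 (SD, n = 10 mice). The productive means were 65.9 ± 1.08, 62.2 ± 2.44, 62.5 ± 1.73 and 60.7 ± 2.06. The non-productive mean was the higher one at each J gene. These values by J gene were not tested.

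V usage was compared over all V calls with edgeR's quasi-likelihood test on clonotype numbers, with the mouse as a block. A V call that names several near-identical genes was kept as a joint name (2.92% of non-productive clonotypes). Of 86 V calls tested, 35 made up a larger share of non-productive than of productive clonotypes, which is 40.7 percent, and 33 a smaller one, which is 38.4 percent (edgeR, Benjamini-Hochberg adjusted p under 0.05). The remaining 18 did not pass. A difference in V usage was therefore the rule, and any single V call below is to be read against that background. Shares within a class must add up, so an excess at some V calls lowers the others.

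**Figure D4:**
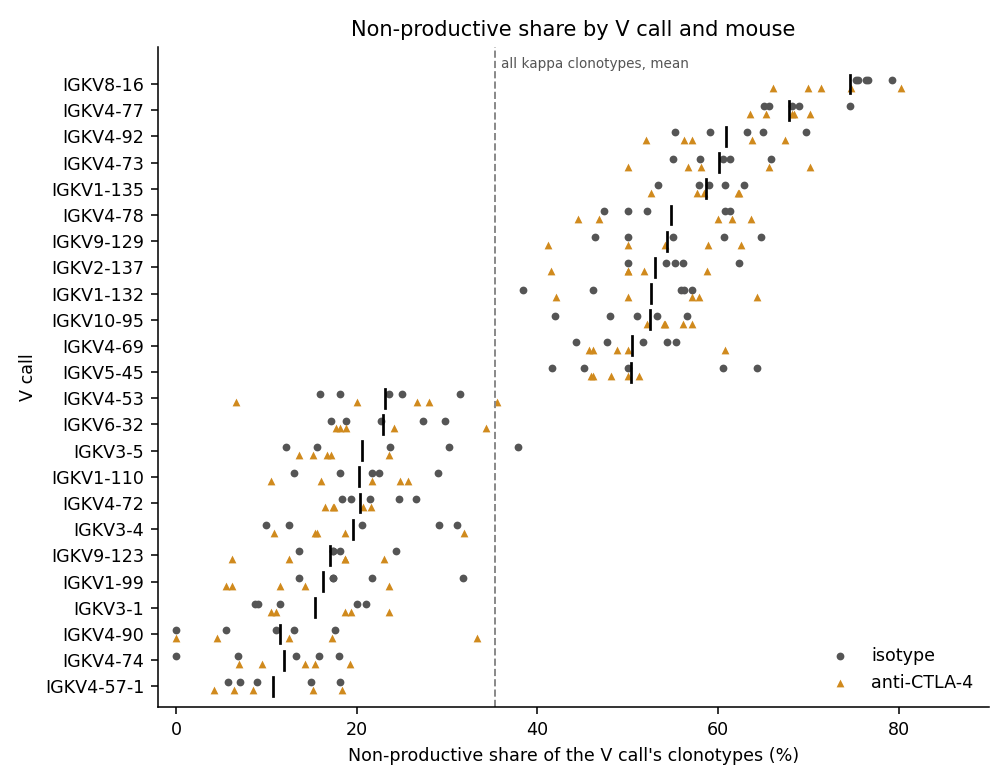
Non-productive share of each V call's clonotypes (x axis, percent) for the 12 V calls with the largest excess and the 12 with the largest deficit among non-productive joints (y axis). Circles are the 5 isotype mice, triangles the 5 anti-CTLA-4 mice, short black bars the mean of 10 mice, and the dashed line the mean over all kappa clonotypes. The upper 12 lie right of the line in all mice, IGKV8-16 between 66.1% and 80.3%, and the lower 12 lie left of it in nearly all.

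IGKV8-16 had the largest log2 ratio in the fit over all clonotypes. It made up from 2.48% to 3.77% of non-productive clonotypes, with a median of 3.19%, and from 0.413% to 0.713% of productive ones, with a median of 0.546%. The ranges were far apart. Its log2 ratio of non-productive to productive share was 2.51 ± 0.10 (SE), with an edgeR adjusted p of 3.90e-28, and 598 of its 798 clonotypes, or 74.9%, were non-productive. Among its non-productive clonotypes 33.1% were near copies, beside 53.8% over all V calls, and without near copies the ratio was 3.09. Its reads aligned unusually, since 417 of its 994 non-productive rows and 76 of its 354 productive rows lacked the same number of V nucleotides, 21, in 1 gap. With gapped alignments left out, an alternative chosen after seeing the data, the log2 ratio was 1.93 (edgeR adjusted p = 6.01e-26), below the 1.97 that IGKV4-77 then had. The part of the gap in the result was not otherwise tested.

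IGKV4-77, annotated as a pseudogene, made up from 2.07% to 2.74% of non-productive and from 0.478% to 0.851% of productive clonotypes. Its log2 ratio was 1.98 ± 0.11 (edgeR adjusted p = 1.00e-22). Of its 656 rows with a V part identical to germline, 647, or 98.6%, carried a stop codon within frameworks 1 to 3, outside the junction. The 225 IGKV4-77 clonotypes flagged productive therefore held an open junction but, in 99.1% of cases, a stop codon in V. Their mean count was 6.44, beside 3.45 for its non-productive clonotypes.

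The same held for other V genes. The 11 V calls whose unmutated rows mostly carried a V stop codon included IGKV12-40, with 142 of 157 such rows, and IGKV4-75, with 76 of 78. Together they gave 345 clonotypes flagged productive, with a mean count of 7.11, while productive clonotypes of all other V calls had a mean count of 94.9. Their 623 non-productive clonotypes had a mean count of 3.28, beside 5.28 for other V calls. The mean count was thus low in both classes of these V calls. Median counts lay close: 2 for these and 2 for other V calls among non-productive clonotypes, and 2 and 3 among productive ones. The highest count among the 345 was 588, for IGKV12-40. These V calls made up 3.22% ± 0.244 of non-productive and 0.970% ± 0.203 of productive clonotypes (SD, n = 10). Only IGKV4-77 among them had enough clonotypes to be tested in the fit.

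IGKV1-135 was the most used V call among non-productive joints, and it too was in excess there. It made up from 3.97% to 7.01% of non-productive clonotypes, with a median of 4.86%, and from 1.57% to 2.09% of productive ones, with a median of 1.83%. Its log2 ratio was 1.46 ± 0.08 (edgeR adjusted p = 7.93e-22). Its joints with IGKJ1, of which 6 are printed above, formed 442 non-productive and 265 productive clonotypes, the most frequent non-productive pair. Its non-productive clonotypes had a mean count of 16.8 and its productive ones 111.

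The other V calls with a large excess had position numbers from 45 to 137. IGKV4-92 had a log2 ratio of 1.60 ± 0.12, IGKV4-73 of 1.57 ± 0.12 and IGKV4-78 of 1.23 ± 0.16. IGKV9-129, IGKV2-137 and IGKV1-132 had 1.22 ± 0.13, 1.12 ± 0.12 and 1.12 ± 0.16. IGKV10-95, IGKV4-69 and IGKV5-45 had 1.08 ± 0.11, 1.00 ± 0.11 and 0.97 ± 0.14. Each of these 9 was higher in 10 of 10 mice, with edgeR adjusted p-values from 3.54e-16 to 1.93e-08. The productive clonotypes of several of them had low mean deposited counts, at 6.80 for IGKV4-92, 7.31 for IGKV4-73, 5.46 for IGKV4-78 and 6.17 for IGKV1-132. IGKV2-137 was an exception at 134, and its ratio by deposited counts in place of clonotypes was -0.06 on the log2 scale (edgeR adjusted p = 0.884).

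The V calls with the largest deficit were all lower in 10 of 10 mice and had position numbers from 1 to 123. IGKV4-57-1 made up from 0.0866% to 0.491% of non-productive and from 0.772% to 1.25% of productive clonotypes. Its log2 ratio was -2.02 ± 0.17 (edgeR adjusted p = 5.98e-15), and only 47 of its 412 clonotypes, or 11.4%, were non-productive. IGKV4-74 and IGKV4-90 had log2 ratios of -1.92 ± 0.19 and -1.81 ± 0.25. IGKV3-1, IGKV3-4 and IGKV3-5 had -1.54 ± 0.20, -1.02 ± 0.14 and -0.97 ± 0.16. IGKV1-99 had -1.39 ± 0.21 and IGKV9-123 had -1.27 ± 0.19. IGKV4-72 and IGKV1-110 both had -1.01, with SEs of 0.11 and 0.12. IGKV6-32 had -0.84 ± 0.11 and IGKV4-53 had -0.79 ± 0.17, the latter with the highest edgeR adjusted p of the 12, 2.93e-05. By deposited counts in place of clonotypes, IGKV4-90 and IGKV1-99 no longer passed (edgeR adjusted p = 0.111 and 0.193). Some of these deficits rest on few non-productive clonotypes. Over the 10 mice there were 26 for IGKV4-90, 32 for IGKV3-1, 36 for IGKV1-99 and 40 for IGKV9-123. IGKV4-57-1 and IGKV4-74 had 47 each. The filter kept a V call with enough clonotypes in either class, and all of these met it through their productive ones. In the other direction, IGKV4-78 met it mainly through its non-productive clonotypes, with a median share of 0.630% beside 0.281% of productive ones. Ratios and adjusted p-values of such V calls are to be read with that limit.

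Of the 5 V calls most used by productive joints, 3 made up a smaller share of non-productive ones. IGKV6-23 made up 4.00% ± 1.20 of productive and 2.74% ± 0.505 of non-productive clonotypes (SD, n = 10), with a log2 ratio of -0.43 ± 0.09 (edgeR adjusted p = 2.57e-05). IGKV10-96 had -0.38 ± 0.09 and IGKV12-44 had -0.52 ± 0.11. With productive counts thinned to the non-productive ones, an alternative chosen after seeing the data, IGKV6-23 at -0.16 and IGKV10-96 at -0.17 did not pass (edgeR adjusted p = 0.142 and 0.204). IGKV6-15 was nearly equal in both classes, at 3.43% and 3.44%, and did not pass (edgeR adjusted p = 0.251). IGKV19-93 had 0.53 ± 0.08 (edgeR adjusted p = 1.31e-07), but near copies made up 71.4% of its non-productive clonotypes, and without them its ratio was -0.13 (adjusted p = 0.442). For IGKV6-15 near copies were 66.9%, and without them its ratio was -0.38 and passed (edgeR adjusted p = 0.0234). It passed in the opposite direction among clonotypes with a count of at least 2, at 0.32 (edgeR adjusted p = 0.00035), and with productive counts thinned, at 0.33 (edgeR adjusted p = 0.0028). No V call with at least 10 non-productive clonotypes lacked productive ones.

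By family, the calls were not evenly split. In IGKV8, 7 of 8 tested V calls were higher in non-productive clonotypes and none lower, and the median log2 ratio was 0.38. In IGKV1, 6 of 8 were higher and 2 lower. In IGKV17 all 3 were higher, but these were IGKV17-121 and joint names of IGKV17-121 and IGKV17-127, not separate genes. In IGKV3, none of 7 was higher and 5 were lower, with a median of -0.70, and in IGKV6 none of 8 was higher and 5 were lower, with a median of -0.39. IGKV4, the largest family, had 8 higher and 10 lower of 23. Over all 86 the median log2 ratio was -0.01. By position, 18 of 30 V calls numbered 91 and up were higher and 9 lower, against 7 higher and 11 lower of 25 numbered 1 to 40. These counts describe the calls and were not tested as sets.

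Non-productive V parts carried fewer mismatches to germline, and the direction of the mean changed without near copies. Mismatches per 100 aligned V nucleotides can come from somatic mutation, from strain differences or from errors. They averaged 0.328 ± 0.0475 in non-productive and 0.462 ± 0.0533 in productive clonotypes (SD, n = 10), lower in 10 of 10 mice (exact permutation test, adjusted p = 0.0024). The share of clonotypes with no V mismatch was 77.8% ± 2.84 against 70.7% ± 5.28, higher in 10 of 10 mice with the same adjusted p. Near copies averaged 0.184 mismatches per 100 nucleotides and other non-productive clonotypes 0.495. Without near copies the difference was 0.0329 in the opposite direction and did not pass (adjusted p = 0.258, exact permutation test), while the share with no mismatch was still higher, by 4.26 points (adjusted p = 0.0026).

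Identical non-productive joints recurred between mice. Of 9155 distinct non-productive clonotypes, 3419, or 37.3%, were found in 2 or more mice and 147, or 1.61%, in all 10. Of 13960 distinct productive clonotypes the figures were 4904, or 35.1%, and 1067, or 7.64%. Among the 147 non-productive joints in all mice, 89.1% had no added nucleotide between V and J, beside 59.2% of those found in 1 mouse. Among the 1067 productive joints the share was 86.3%, beside 62.4%. With near copies left out, 79 of 5456 distinct non-productive clonotypes were in all 10 mice. Leaving out each clonotype that had more counts in another mouse kept 19 V calls past the threshold, of 45 tested, and IGKV8-16 still had a log2 ratio of 2.45 (edgeR adjusted p = 1.92e-10).

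No measure of the non-productive joints passed correction between the treatments. The non-productive share of kappa clonotypes averaged 36.5% ± 1.92 in isotype and 34.2% ± 4.75 in anti-CTLA-4 mice (SD, n = 5 each; exact permutation test, adjusted p = 0.709 over 19 measures). The share of kappa counts averaged 3.16% ± 1.27 and 2.97% ± 1.01 (adjusted p = 0.833), and the in-frame share 4.35% ± 0.840 and 4.83% ± 0.512 (adjusted p = 0.709, exact permutation tests). In this design the smallest unadjusted p is 0.00794. Of the 19 measures, 3 had an unadjusted p under 0.05 and none passed.

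**Figure D5:**
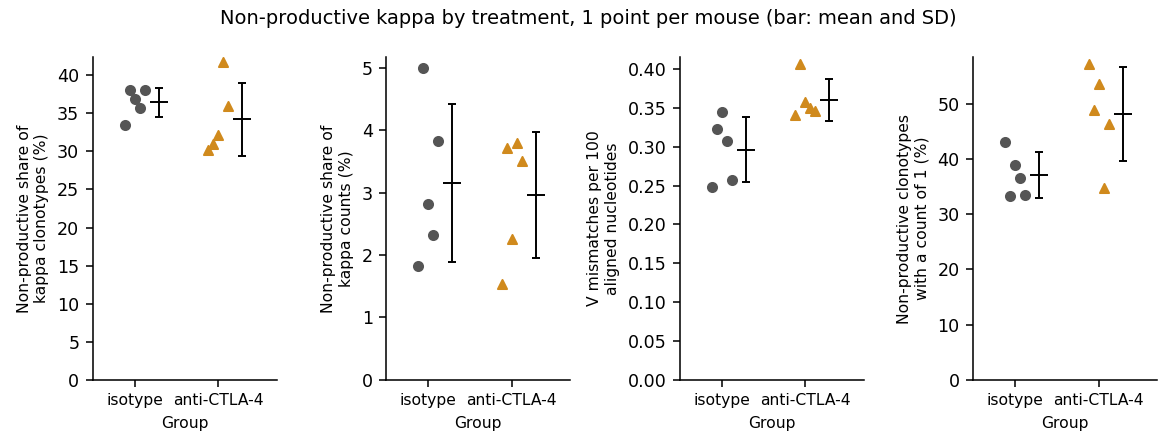
Per-mouse values (y axes, with their units) of 4 measures in the 5 isotype and 5 anti-CTLA-4 mice (x axes). Each point is 1 mouse, and the bar beside it is the mean with its SD. The groups overlap on every measure, with V mismatches and the share of clonotypes with a count of 1 mostly higher in anti-CTLA-4 mice.

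V mismatches per 100 nucleotides of non-productive clonotypes were 0.248, 0.323, 0.345, 0.308 and 0.257 in isotype replicates 1 to 5. They were 0.341, 0.407, 0.357, 0.350 and 0.347 in anti-CTLA-4 replicates 1 to 5. The groups overlapped only between 0.341 and 0.345, and the means differed with an unadjusted p of 0.0159 and an adjusted p of 0.151 (exact permutation test). Clonotypes with a count of 1 made up 43.2%, 33.3%, 38.9%, 36.6% and 33.5% in the isotype mice. They made up 57.2%, 48.9%, 53.6%, 34.8% and 46.4% in the anti-CTLA-4 mice, with an unadjusted p of 0.0397 and an adjusted p of 0.251 (exact permutation test). V trimming averaged 5.19 ± 0.0238 and 5.27 ± 0.0302 nucleotides (unadjusted p = 0.0159, adjusted p = 0.151, exact permutation test). The mismatch difference was -0.0141 among clonotypes with a count of at least 2.

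V usage of non-productive joints was compared between treatments as well. None of 70 V calls passed in edgeR's quasi-likelihood test, which is 0 percent, and 4 had an unadjusted p under 0.05. DESeq2 called none either. IGKV6-23 made up 3.03% ± 0.533 of non-productive clonotypes in anti-CTLA-4 and 2.45% ± 0.279 in isotype mice, with a log2 ratio of 0.32 ± 0.14 (SE). IGKV8-24 made up 0.939% ± 0.192 against 1.34% ± 0.280, with a log2 ratio of -0.43 ± 0.18. IGKV6-32 made up 0.896% ± 0.215 against 1.24% ± 0.453, with a log2 ratio of -0.47 ± 0.20. All 3 had an edgeR adjusted p of 0.599. IGKV6-17 had a log2 ratio of 0.41 ± 0.17 (adjusted p = 0.61), and IGKV5-39 and IGKV5-43 had -0.45 ± 0.21 and 0.30 ± 0.16 (edgeR adjusted p = 0.652).

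The contrast with productive joints was also compared between treatments. None of the 16 within-mouse differences between the classes differed between isotype and anti-CTLA-4 mice after correction (exact permutation tests, lowest adjusted p = 0.762). The mean V position number was higher in non-productive joints by 5.32 ± 0.308 in isotype and 5.92 ± 1.85 in anti-CTLA-4 mice (SD, n = 5 each). The IGKJ2 share differed by -5.24 and -5.28 points. The excess of clonotypes with a count of 1 was 9.08 and 15.6 points, the only measure with an unadjusted p under 0.05, at 0.0476.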

How the data were processed

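B cell receptor transcripts of 10 mice were sequenced with a mouse kit that adds molecular identifiers, per the labels' protocols. For each mouse the authors deposited a table that lists sequences with V and J calls, germline alignment, junction and a whole-number count, per the file headers. The sources used here name no aligner, germline set, batch or treatment of the identifiers. V names were matched to the GRCm38.p6 gene table (118 of 118), used for names and pseudogene status alone.

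Members and lists were chosen with earlier results of these data known. The non-productive flag followed the junction alone: no clonotype held both flags. Clonotypes were formed per mouse, and V mismatches were counted over at least 200 aligned nucleotides. Each clonotype weighed 1, since counts weigh secreting cells.

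Measures were compared within mice with two-sided exact sign-flip permutation tests and between treatments with two-sided exact permutation tests, with Benjamini-Hochberg adjustment within a family of 16, 19 or 16 measures. V usage was tested with edgeR 4.0.16 (glmQLFit, TMM, filterByExpr) in R 4.3.3, with DESeq2 1.42.0 as an alternative. Named V calls were the 12 with the largest log2 ratio in each direction past an adjusted p of 0.05, the 5 most used of each class and 6 by the treatment fit. Both test types were checked on simulated data. The alternatives were rows, counts, count minimum, near copies, frame, shared clonotypes, V call ambiguity, common mismatch positions, pseudogenes, normalization, filter, block and each mouse left out. Gapped alignments, V genes with a stop codon, overlapping V and J alignments and thinned productive counts were added after seeing the data.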

Additional observations from a re-analysis of the deposited data

Results flagged for a closer look

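Among 110 groups of 5 mice, 6 held a mouse far from the others by Dixon's test, where chance flags about 1 in 20 groups, or 5.5 here. Anti-CTLA-4 replicate 2 had 0.407 V mismatches per 100 nucleotides in non-productive clonotypes, against 0.341 to 0.357 in the other 4. IGKV10-95 made up 2.16% of non-productive clonotypes in anti-CTLA-4 replicate 1, against 1.33% to 1.56%. V genes numbered 91 and up made up 34.1% in isotype replicate 3, against 35.1% to 35.5%. IGKV4-73 made up 1.66% in isotype replicate 1, against 1.12% to 1.22%. IGKV1-99 made up 0.369% in isotype replicate 5, against 0.166% to 0.216%. IGKV4-53 made up 0.252% in isotype replicate 3, against 0.422% to 0.485%.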

How the results depend on the processing

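Of 1425 values under alternatives, 1368 were unchanged. For a single measure or V call this means that it kept its direction and its side of the threshold. For a number of measures or V calls passing, it means equal or within 1.5-fold. Some values cannot change: assigning overlapping V and J alignments alters only trimming and nucleotides between V and J. Differences below are non-productive minus productive. With rows in place of clonotypes, IGKJ1 passed at 3.32 points, while IGKJ5 at -0.354, V position 41 to 90 at -1.90 and clonotypes with a count of 1 at 2.49 points did not, and nucleotides between V and J turned to 0.182. Among clonotypes with a count of at least 2, nucleotides between V and J passed at -0.103, and the treatment difference in V mismatches turned to -0.0141. Without near copies, IGKJ1 turned to -0.44 points, V mismatches to 0.0329, nucleotides between V and J to 0.305, the treatment difference in the count share to 0.174 points, and the log2 ratios of IGKV6-15 and IGKV19-93 to -0.38 and -0.13. IGKJ1 also passed with out-of-frame joints only, at 0.990 points, with single V genes in the call, at 0.998, without annotated pseudogenes, at 1.06, and without V genes with a stop codon, at 1.05. With each shared joint kept only in the mouse with its highest count, IGKJ5 at 0.80, V position 41 to 90 at -0.716 and clonotypes with a count of 1 at 1.15 points did not pass, nucleotides between V and J turned to 0.0915, IGKV6-15 to -0.39, and 8 V calls were higher and 11 lower, of 45 tested. With productive counts thinned to the non-productive ones, 21 V calls were higher and 17 lower, of 62 tested. With nucleotides covered by both the V and the J alignment given to V alone, the difference in J trimming turned to 0.15 nucleotides.

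Weighting by deposited counts changed most: 5 of 16 measures passed. IGKJ2 at -8.89, IGKJ4 at 5.83, V position 1 to 40 at -0.617, 41 to 90 at -7.22 and 91 and up at 7.84 points, V mismatches at -0.0319, no V mismatch at 6.30 points, junction length at -0.331 and J trimming at -0.0199 nucleotides did not pass. IGKJ5 turned to -3.74 points and nucleotides between V and J to 0.280. The treatment differences in V position, V mismatches and no V mismatch turned to -2.52, -0.0211 and 0.0440. With counts in the V usage fit, log2 ratios turned to -0.061 for IGKV2-137, -0.43 for IGKV6-15 and -0.17 for IGKV19-93, and for treatment to -1.22 for IGKV6-17. The causes were not tested.

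With each mouse left out in turn, IGKJ1 ranged from 0.638 to 1.09 points, nucleotides between V and J from -0.0711 to -0.0306, and the treatment difference in the count share from -0.525 to 0.269 points, turning positive without isotype replicate 2 (0.269) and without anti-CTLA-4 replicate 1 (0.167). The 12 V calls with the largest ratio in each direction gave 521 values under 24 alternatives, of which 518 kept their call. A V call that an alternative left untested gave no value. Of the 24 V calls, 9 were tested with each shared joint kept only in the mouse with its highest count. With productive counts thinned 14 were tested, with a count of at least 2 18, and without near copies 20.

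Same-numbered mice correlated at 0.229, 0.232, 0.336, -0.10 and -0.097 over 19 measures, below 0 in 2 of 5 pairs, so the numbers were not taken as pairs. With the replicate block, the treatment difference in non-productive share of clonotypes was -2.26 points (exact permutation p = 0.375), and 0 measures and 0 V calls passed. Depth limits V calls with few clonotypes. The filter left untested those sparse in both classes in the paired fit, and those with few non-productive clonotypes in the treatment fit.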
